A study of Homo sapiens with 6 samples.

Results

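The genes of cholesterol and fatty acid synthesis were examined in A549 cells, a human lung adenocarcinoma line, after FSCN1 silencing. The set held 38 genes, found by their symbols among the 30230 genes of the count table: 19 enzymes of sterol synthesis, 6 regulators and carriers of sterols, and 13 genes of fatty acid synthesis, elongation, desaturation and activation. It is a selection and not the whole of either pathway. RNA sequencing had measured polyadenylated RNA in 3 negative control (NC) libraries and in 3 libraries of cells treated to silence FSCN1 (siFSCN1 group), which encodes fascin, a protein that bundles actin. According to the study's methods, both groups were A549 cells cultured with serum and transfected with a lipid reagent, the siFSCN1 group with a single siRNA against FSCN1 and the NC group with a scrambled siRNA, whereas the treatment label of the NC samples names a control plasmid. With 1 siRNA sequence, loss of FSCN1 and any other effect of that siRNA cannot be told apart.

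Cholesterol is built from acetyl-CoA through mevalonate, isoprenoid diphosphates, squalene and lanosterol, and the isoprenoids made on the way also serve protein prenylation, ubiquinone and dolichol. Fatty acids are built from the same acetyl-CoA by carboxylation and repeated condensation to palmitate, which is then elongated, desaturated and joined to coenzyme A. Both pathways are under the transcription factors SREBP-2 and SREBP-1, membrane-bound precursors that SCAP carries to the Golgi for cleavage when sterols are low and that the INSIG proteins hold in the endoplasmic reticulum when sterols are high. SREBP-2 acts mainly on sterol genes and SREBP-1c mainly on fatty acid genes.

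FSCN1 was measured first as a check of the labels. Its deposited FPKM (a level per gene length and library depth) was 44.98, 47.24 and 45.99 in the NC libraries and 4.46, 2.82 and 3.19 in the siFSCN1 libraries, 46.1 ± 1.13 against 3.49 ± 0.860 (SD, n = 3 each). The groups did not overlap, and the siFSCN1 level was 6.75% of the NC level in the fitted model. Library totals ranged from 27967301 to 36560919 counts. Of 9 lung epithelial markers 8 had a row. Their summed FPKM, nearly all of it from KRT8 and KRT18, was between 2607 and 3001 in NC and between 1526 and 1855 in siFSCN1, while SFTPC reached at most 0.1 FPKM and NKX2-1, which defines the lung lineage, at most 0.04. Summed FPKM of endothelial markers was at most 0.07 and of fibroblast markers at most 0.68. Leukocyte markers summed to between 3.22 and 5.15 FPKM, mostly CD14, with PTPRC and CD3E at or near 0. The epithelial markers did not move together: KRT8, KRT18 and KRT19 fell, by 0.88, 0.99 and 1.10 on the log2 scale, whereas CDH1 rose by 1.35, EPCAM by 0.29 and NAPSA by 1.78, the last from at most 0.16 FPKM. The part of these differences in the results below was not tested.

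Most genes of the set were expressed at a lower level after FSCN1 silencing, by modest amounts. Of the 38 genes, all of which passed the filter on low counts, 24 fell and 6 rose at an adjusted p under 0.05 in edgeR's quasi-likelihood test with Benjamini-Hochberg adjustment over 17076 genes, and 8 did not pass. Among all genes tested, 33.2% were lower, 35.1% higher and 68.3% either of these by the same rule. The set was well expressed, however, and among the 5318 tested genes whose mean FPKM reached 5 the shares were 59.1% lower and 23.2% higher. The 30 members at that level gave 18 lower (60.0%) and 5 higher (16.7%), a share lower near that of other well expressed genes. In bulk RNA a lower value can come from fewer cells that express a gene or from less RNA per cell, and these cannot be told apart here. The study describes the libraries as biological replicates. The labels do not say that they came from separate cultures, so the p-values measure the spread between these samples.

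Only 3 of the 38 genes changed by 2-fold or more, and all 3 fell: SCD, ELOVL6 and EBP. Of all genes tested, 4.85% fell and 11.7% rose by this rule. The median log2 fold change (siFSCN1 over NC) was -0.40 for the sterol enzymes, -0.02 for the sterol regulators and -0.18 for the fatty acid genes, against 0.03 for all tested genes and -0.22 for those whose mean FPKM reached 5. The sterol enzymes lay 0.22 below the fatty acid genes by their medians on the log2 scale. In the 3 siFSCN1 libraries the median departure of the sterol enzymes from their NC mean was -0.31, -0.45 and -0.41, and that of the fatty acid genes was -0.23, -0.22 and -0.17. The sterol enzymes were thus the lower class in every siFSCN1 library, with gaps of -0.08, -0.23 and -0.24. Without siFSCN1 replicate 2 the gap between the fitted medians was -0.14.

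**Figure D1:**
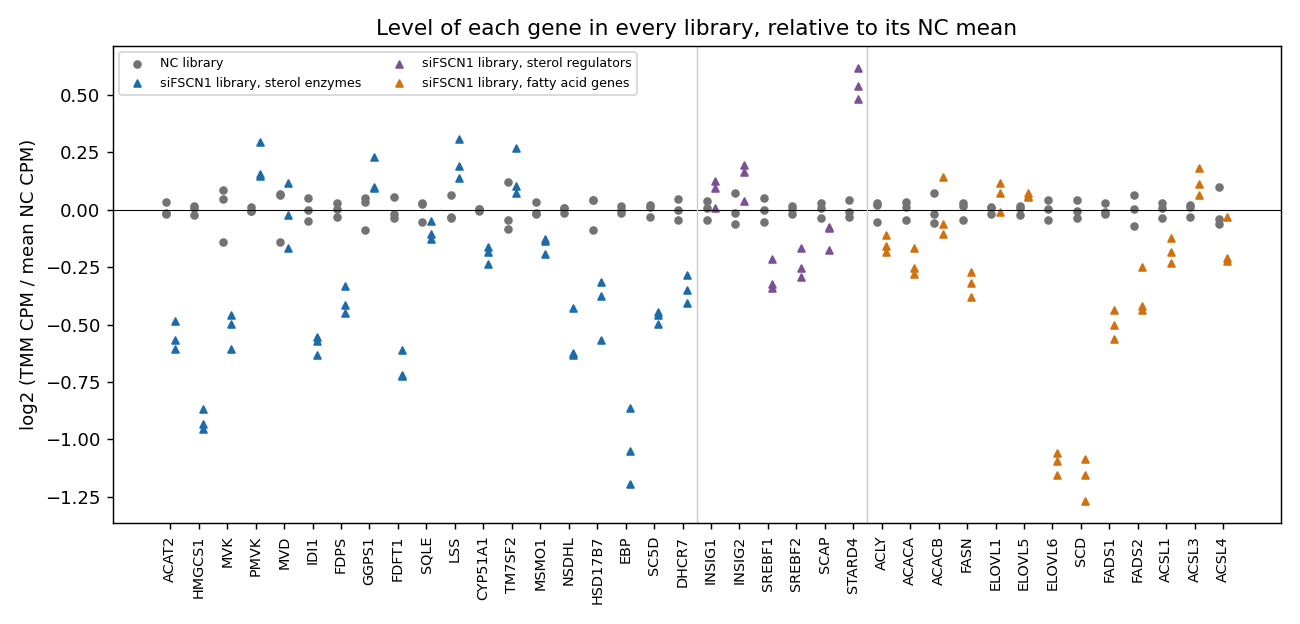
For each of the 38 genes (horizontal axis, in pathway order), the points give log2 of the CPM (counts scaled to library size with TMM factors) in each library over the mean of the 3 NC libraries; circles are NC libraries and triangles siFSCN1 libraries. The triangles of SCD, ELOVL6, EBP and HMGCS1 lie lowest, and those of EBP overlap in range with each of the others. Those of STARD4 lie highest. The groups do not overlap for 24 genes lower and 6 genes higher in siFSCN1, beside 34.4% and 36.8% of all tested genes. SCAP counts among the 24 and ELOVL5 among the 6 though neither passed, while ACSL4 and INSIG2 passed but overlap.

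The promoters of 6 genes are shown because they hold the 3 genes that fell by 2-fold (SCD, ELOVL6, EBP), the next largest fall among the sterol enzymes (HMGCS1), the sterol regulator SREBF2 and the gene with the largest rise (STARD4). Each sequence runs 5′ to 3′ on the gene's strand, from 250 bases before the RefSeq transcription start to 50 bases into the transcript (GRCh38.p14). Capitals mark CCAAT or its reverse complement, the core of the NF-Y site, and TCACNCCAC, one form of the sterol regulatory element. HMGCS1 has 2 entries in the table, of which the first is shown, and the other genes shown have 1.
SCD, chr10:100346983-100347282, plus strand: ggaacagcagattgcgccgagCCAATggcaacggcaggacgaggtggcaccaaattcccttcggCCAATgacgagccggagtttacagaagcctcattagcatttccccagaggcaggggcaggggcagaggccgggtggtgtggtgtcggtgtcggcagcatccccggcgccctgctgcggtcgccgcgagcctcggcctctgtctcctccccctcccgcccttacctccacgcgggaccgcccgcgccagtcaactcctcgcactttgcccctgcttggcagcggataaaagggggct
ELOVL6, chr4:110198566-110198865, minus strand: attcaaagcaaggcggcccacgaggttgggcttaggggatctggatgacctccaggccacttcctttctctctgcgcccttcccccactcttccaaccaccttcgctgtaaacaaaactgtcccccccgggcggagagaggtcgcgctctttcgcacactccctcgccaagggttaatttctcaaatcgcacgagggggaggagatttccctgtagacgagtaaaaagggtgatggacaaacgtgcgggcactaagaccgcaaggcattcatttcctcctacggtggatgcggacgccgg
EBP, chrX:48521558-48521857, plus strand: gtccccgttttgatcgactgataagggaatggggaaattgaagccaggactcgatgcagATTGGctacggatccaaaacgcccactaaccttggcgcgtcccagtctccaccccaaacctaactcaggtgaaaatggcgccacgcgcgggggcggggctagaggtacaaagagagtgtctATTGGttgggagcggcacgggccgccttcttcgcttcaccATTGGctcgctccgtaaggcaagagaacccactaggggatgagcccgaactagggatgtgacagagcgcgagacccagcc
HMGCS1, chr5:43313363-43313662, minus strand: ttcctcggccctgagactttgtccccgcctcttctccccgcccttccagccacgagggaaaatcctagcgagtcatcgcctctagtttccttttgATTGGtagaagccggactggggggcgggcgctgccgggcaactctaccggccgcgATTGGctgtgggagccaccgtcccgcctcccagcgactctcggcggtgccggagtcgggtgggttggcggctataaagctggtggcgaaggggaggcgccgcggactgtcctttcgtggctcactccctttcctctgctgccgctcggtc
SREBF2, chr22:41832855-41833154, plus strand: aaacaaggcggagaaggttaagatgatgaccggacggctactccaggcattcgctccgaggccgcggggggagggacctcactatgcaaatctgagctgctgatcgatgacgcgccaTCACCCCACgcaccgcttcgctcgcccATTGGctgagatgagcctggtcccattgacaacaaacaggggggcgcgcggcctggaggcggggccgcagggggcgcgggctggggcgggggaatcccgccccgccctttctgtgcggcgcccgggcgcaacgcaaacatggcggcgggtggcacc
STARD4, chr5:111512486-111512785, minus strand: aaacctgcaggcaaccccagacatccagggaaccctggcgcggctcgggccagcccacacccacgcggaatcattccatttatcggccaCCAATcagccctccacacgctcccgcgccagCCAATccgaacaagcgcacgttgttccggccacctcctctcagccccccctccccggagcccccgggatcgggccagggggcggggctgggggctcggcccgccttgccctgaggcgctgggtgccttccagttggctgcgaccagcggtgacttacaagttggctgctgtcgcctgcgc

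The CCAAT core occurred more than once in 4 of these windows. With positions of the first base counted from the start, SCD had it at -229 and -186, HMGCS1 at -155 and -100, STARD4 at -161 and -130, and EBP at -191, -70 and -30. The other HMGCS1 entry, which is not printed, had no CCAAT match. SREBF2 had 1 copy, at -106, beside the only TCACNCCAC match among the windows printed, at -133. ELOVL6 had no CCAAT match in its window, so genes that fell are found both with and without it, and STARD4, which rose, carried as many copies as SCD.

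Entries were found for 34 of the 38 genes; ACAT2, FDFT1, SQLE and FASN had none. On both strands and counting a gene once if any of its entries matched, CCAAT was present for 26 of the 34 (76.5%) and for 39.7% of the 27305 genes in the table. It was present for 14 of 16 sterol enzymes, 3 of 6 sterol regulators and 9 of 12 fatty acid genes. By direction it was present for 16 of the 21 genes that fell, 4 of the 6 that rose and 6 of the 7 that did not pass. The GC box core GGGCGG, the centre of the Sp1 site, was present for 32 of 34 genes (94.1%) and for 48.3% of all genes. TCACNCCAC was present for 2 of 34, SREBF2 and ACSL1, and for 1.39% of all genes. Single entries gave lower shares, 58.8% of 51 for CCAAT against 34.6% of 35116. These matches describe the letters in the windows only.

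In the mevalonate segment 4 of 6 genes fell, 1 rose and 1 did not pass, where 33.2% of all tested genes were lower. Among tested genes whose mean FPKM reached 5, the share lower was 59.1%. HMGCS1 makes HMG-CoA in the cytosol and supplies the committed step of the pathway. Its CPM was 423.5, 425.1 and 413.9 in NC and 220.5, 217.3 and 230.9 in siFSCN1. All siFSCN1 libraries lay near 53.0% of the NC level with no overlap. HMGCS1 fell by 0.92 ± 0.037 (SE) on the log2 scale, with an edgeR adjusted p of 2.58e-13. ACAT2, the cytosolic thiolase upstream of it, fell by 0.55 on the log2 scale, MVK, which phosphorylates mevalonate, fell by 0.52, and IDI1, which isomerises isopentenyl diphosphate, fell by 0.59.

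PMVK, the kinase that follows MVK, rose. Its CPM was 35.3, 34.9 and 35.0 in NC and 43.0, 38.9 and 39.1 in siFSCN1, so the groups did not overlap, with replicate 1 the highest. The rise was 0.20 ± 0.054 (SE) on the log2 scale, with an edgeR adjusted p of 0.00298. MVD, which decarboxylates mevalonate diphosphate, lies between PMVK and IDI1 in the pathway and did not pass, at -0.02 ± 0.070 (SE) on the log2 scale and an adjusted p of 0.788, though with library totals it passed as higher, at 0.16 with an adjusted p of 0.0385. MVK, PMVK and MVD, which act in succession, therefore gave a fall, a rise and no call.

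The prenyl synthases moved in opposite directions in the reported fit. FDPS, which makes farnesyl diphosphate, fell by 0.40 on the log2 scale, and 8 named pseudogenes of FDPS in the annotation make its count less certain. GGPS1, which makes the geranylgeranyl diphosphate used in prenylation, had a CPM of 29.3, 26.9 and 29.6 in NC and 30.7, 30.5 and 33.5 in siFSCN1. The lowest siFSCN1 library lay just above the highest NC library. The log2 fold change of GGPS1 was 0.14 ± 0.056 (SE), with an edgeR adjusted p of 0.0337. This call was lost without NC replicate 1 (adjusted p 0.0600), NC replicate 2 (0.140) or siFSCN1 replicate 3 (0.252). With all libraries it was also lost with RLE scaling (0.0605), DESeq2 (0.134) and no filter beyond 1 count (0.0821).

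At the branch to sterols, FDFT1, the squalene synthase, fell. Its CPM was 282.2, 267.5 and 264.3 in NC and 177.7, 164.3 and 164.9 in siFSCN1, without overlap. FDFT1 fell by 0.68 ± 0.042 (SE) on the log2 scale, with an edgeR adjusted p of 7.00e-11. SQLE, the squalene epoxidase and a rate-limiting step, had a log2 fold change of -0.09 ± 0.041 (SE). Its edgeR adjusted p was 0.0529, and its groups overlapped. SQLE passed as lower with RLE scaling (0.0268), DESeq2 (0.0296), the replicate block (0.0448) and without NC replicate 2 (0.0318) or siFSCN1 replicate 3 (0.0159). Its sign turned in 5 other alternatives, and with the abundance trend removed it passed as higher, at 0.13 with an adjusted p of 0.0113. LSS, which closes the ring to lanosterol, had a CPM of 46.8, 46.8 and 50.1 in NC and 59.3, 52.7 and 54.7 in siFSCN1, where every library was above NC. LSS rose by a log2 fold change of 0.21 ± 0.055 (SE), with an edgeR adjusted p of 0.00229. The 3 steps from farnesyl diphosphate to lanosterol thus differed in direction.

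After lanosterol, 7 of 8 genes fell and 1 did not pass. Of all tested genes 33.2% were lower, and of those whose mean FPKM reached 5, 59.1%. Of the 8 genes, 5 lay below the trend of fold change on abundance described below. EBP, the sterol isomerase, changed most. EBP (chromosome X, 48521799 to 48528716, plus strand, GRCh38) had a CPM of 160.8, 158.9 and 157.2 in NC and 87.5, 76.8 and 69.5 in siFSCN1. The NC libraries were nearly equal, the siFSCN1 libraries were spread more widely, and the groups were far apart. EBP fell by 1.03 ± 0.060 (SE) on the log2 scale, with an edgeR adjusted p of 3.96e-11. In GENCODE another protein-coding gene on the same strand overlaps EBP, and how reads were divided between them is not given in the sources used here.

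The other falls after lanosterol were smaller. NSDHL, which acts in removal of the C4 methyl groups, fell by 0.56 on the log2 scale. SC5D, which introduces the C5 double bond, fell by 0.47, HSD17B7, a ketoreductase, by 0.42, and DHCR7, which reduces the last ring double bond, by 0.35. CYP51A1, the lanosterol demethylase, fell by 0.19 and MSMO1, the C4 methyl oxidase, by 0.15, and both lost the call with upper quartile scaling (adjusted p 0.0969 and 0.467). TM7SF2, a sterol reductase, had a log2 fold change of 0.15 ± 0.070 (SE) and an adjusted p of 0.0710, and it passed as higher in 7 alternatives, with adjusted p of 0.00247 with upper quartile scaling and 0.0321 without NC replicate 3. Of these genes HSD17B7 and CYP51A1 each have 3 named pseudogenes, as does IDI1.

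Among the sterol regulators, 2 fell, 2 rose and 2 did not pass. SREBF2, which encodes SREBP-2, had a CPM of 136.4, 134.0 and 137.3 in NC and 121.1, 114.0 and 111.0 in siFSCN1. SREBF1, which encodes both SREBP-1 isoforms, had a CPM of 162.7, 151.1 and 156.7 in NC and 135.3, 123.9 and 125.4 in siFSCN1. Neither overlapped between groups. The log2 fold changes were -0.24 ± 0.042 (SE) for SREBF2 and -0.29 ± 0.044 (SE) for SREBF1, with edgeR adjusted p of 8.13e-05 and 1.25e-05. The gene total for SREBF1 does not separate the isoforms.

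STARD4, a soluble carrier that moves cholesterol between membranes, had the largest rise of the 38 genes. STARD4 (chromosome 5, 111496033 to 111512590, minus strand, GRCh38) had a CPM of 22.4, 22.8 and 23.6 in NC and 32.0, 33.4 and 35.2 in siFSCN1. All siFSCN1 libraries were above all NC libraries. The log2 fold change was 0.55 ± 0.053 (SE), with an edgeR adjusted p of 4.07e-08. An antisense gene, STARD4-AS1, overlaps it.

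The INSIG genes lay near the limit of a call. INSIG2 had a CPM of 25.0, 25.9 and 27.5 in NC and 26.9, 29.9 and 29.3 in siFSCN1, and the lowest siFSCN1 library lay below the highest NC library. INSIG2 passed narrowly, at 0.13 ± 0.056 (SE) on the log2 scale with an edgeR adjusted p of 0.0445, and lost the call when NC replicate 1 or 2 or siFSCN1 replicate 2 or 3 was left out (adjusted p from 0.0907 to 0.210). With all libraries INSIG2 also lost it with RLE scaling (0.0735), DESeq2 (0.174) and no filter beyond 1 count (0.120). INSIG1, a gene that SREBP itself induces, did not pass, at 0.08 ± 0.049 (SE) and an adjusted p of 0.176. It passed as higher in 6 alternatives, for example at 0.19 with upper quartile scaling (adjusted p 0.00169) and 0.24 with the abundance trend removed (0.000282), and its FPKM did not overlap between groups. SCAP was at -0.11 ± 0.051 (SE), with an adjusted p of 0.0628, passed as lower with RLE scaling (0.0356) and without siFSCN1 replicate 1 (0.0228), and turned sign in 5 alternatives.

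In the fatty acid group SCD fell most, and it was the most highly expressed gene of the set in NC. SCD encodes the stearoyl-CoA desaturase that makes oleate and palmitoleate. SCD (chromosome 10, 100347233 to 100364826, plus strand, GRCh38) had a CPM of 1123.2, 1062.3 and 1084.8 in NC and 514.5, 452.2 and 489.2 in siFSCN1. Every siFSCN1 library was below every NC library by a wide margin. The log2 fold change was -1.17 ± 0.045 (SE), with an edgeR adjusted p of 1.27e-13, and the siFSCN1 level was 44.5% of NC. SCD has 1 named pseudogene.

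ELOVL6, the elongase that takes palmitate to stearate and so makes the substrate of SCD, fell nearly as much from a far lower level. ELOVL6 (chromosome 4, 110045846 to 110199199, minus strand, GRCh38) had a CPM of 44.4, 45.8 and 47.2 in NC and 21.5, 20.6 and 22.0 in siFSCN1. The libraries of each group lay close together and the groups were well apart. ELOVL6 fell by 1.10 ± 0.052 (SE) on the log2 scale, with an edgeR adjusted p of 2.13e-12. The other elongases did not pass: ELOVL1, which acts on very long chains, and ELOVL5, which acts on polyunsaturated chains, were both at 0.06 on the log2 scale (SE 0.045 and 0.039), with adjusted p of 0.237 and 0.174. Both depended on the scaling: ELOVL1 passed as higher in 6 alternatives and ELOVL5 in 7, at 0.18 each with upper quartile scaling (adjusted p 0.00185 and 0.000581) and 0.25 each with library totals. By FPKM neither gene overlapped between groups, and by CPM ELOVL5 did not.

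All 3 desaturase genes fell, where 33.2% of all tested genes were lower. At the level of these genes that share was larger, 68.3% from 20 to 100 FPKM and 81.9% at 100 FPKM and above. FADS1, the delta-5 desaturase, had a CPM of 433.1, 419.9 and 422.2 in NC and 314.5, 287.7 and 300.5 in siFSCN1, without overlap. FADS1 fell by 0.50 ± 0.039 (SE) on the log2 scale, with an edgeR adjusted p of 2.06e-09. FADS2, the delta-6 desaturase, fell by 0.37 on the log2 scale. With the abundance trend removed it was at -0.04 and lost the call (edgeR adjusted p 0.474). The FADS1 and FADS2 loci overlap on opposite strands, so their counts may not be fully separate.

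The de novo enzymes fell less. FASN, the fatty acid synthase, had a CPM of 370.5, 374.3 and 355.6 in NC and 303.9, 282.2 and 294.0 in siFSCN1, again without overlap. Its log2 fold change was -0.32 ± 0.038 (SE), with an edgeR adjusted p of 6.55e-07. ACACA, the acetyl-CoA carboxylase of the cytosol, fell by 0.23 on the log2 scale, a call lost in 4 alternatives, library totals among them (adjusted p 0.396). ACLY, which makes cytosolic acetyl-CoA from citrate, fell by 0.15 with TMM, but its mean FPKM was 129 in NC and 131 in siFSCN1. Its sign turned in 4 alternatives, and with the abundance trend removed it passed as higher, at 0.19 with an edgeR adjusted p of 0.000207. ACACB, the mitochondrial carboxylase, was at -0.01 ± 0.11 (SE) with an adjusted p of 0.957 and was the least expressed gene of the set.

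The acyl-CoA synthetases, which activate fatty acids, were split. ACSL3, the form found on lipid droplets, had a CPM of 164.8, 169.7 and 170.9 in NC and 176.3, 182.1 and 191.3 in siFSCN1. It was the only fatty acid gene of the 13 to rise, by 0.12 ± 0.040 (SE) on the log2 scale, with an edgeR adjusted p of 0.0121. Without NC replicate 1 or siFSCN1 replicate 3 the adjusted p was 0.0562 and 0.0770. ACSL1 fell by 0.18, a call lost with upper quartile scaling (adjusted p 0.298), and ACSL4, which prefers arachidonate, by 0.15, though the groups of ACSL4 overlapped and its call was lost without NC replicate 2, siFSCN1 replicate 1 or siFSCN1 replicate 2 (adjusted p from 0.0668 to 0.168).

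Levels per length, which can be compared between genes, were taken from the deposited FPKM. In NC, SCD came first with 165 ± 3.84 FPKM (SD, n = 3) and ACLY next with 129 ± 3.04, both far above EBP at rank 3 with 71.4 ± 0.155. In siFSCN1 the first places were exchanged, with ACLY at 131 ± 3.10 and SCD at 82.5 ± 6.40. HMGCS1 moved from rank 4 to 9 with 50.5 ± 0.479 and 30.0 ± 1.06 FPKM, and MSMO1 from 8 to 5 with 38.5 ± 1.10 and 38.9 ± 1.19. In siFSCN1 the genes at ranks 3 to 5, FADS2 at 42.3 ± 3.61, EBP at 39.3 ± 4.97 and MSMO1, lay within 1 SD of each other.

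**Figure D2:**
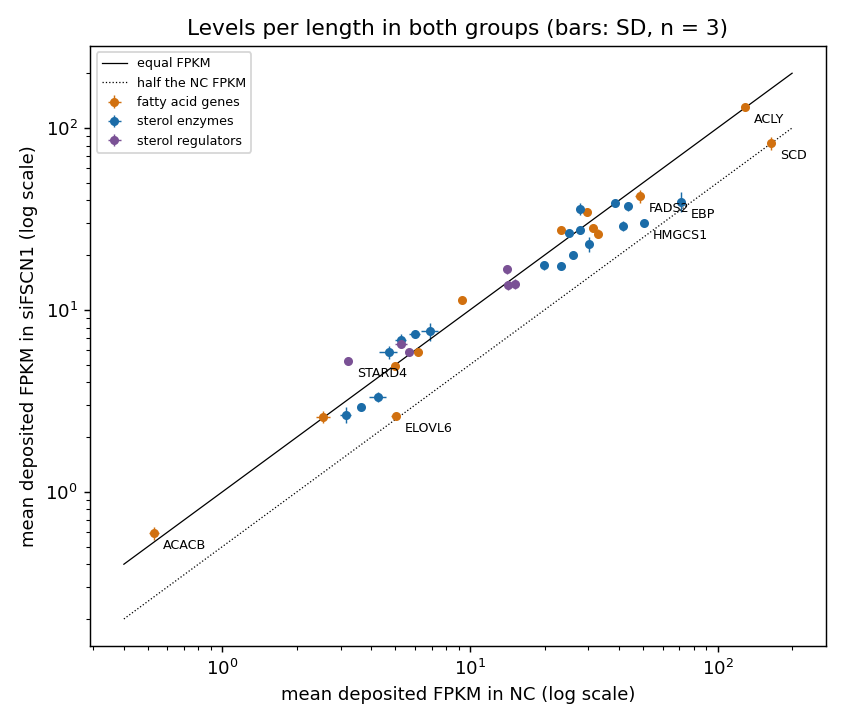
Mean deposited FPKM of each gene in NC (horizontal) and siFSCN1 (vertical), both on log axes, with bars for the SD of 3 libraries; the solid line marks equal FPKM and the dotted line 0.5 times the NC value. SCD (165 and 82.5 FPKM) lies on the dotted line and ACLY (129 and 131 FPKM) on the solid line.

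By deposited FPKM, SCD alone made up most of the fall in the summed level of the fatty acid genes. Their summed FPKM was 489.0 ± 4.88 in NC and 400.0 ± 14.5 in siFSCN1 (SD, n = 3), a ratio of 0.818. Without SCD the sums were 323.8 ± 2.41 and 317.4 ± 8.10, a ratio of 0.980. This ratio applies to FPKM only. On the TMM scale 9 of the 13 fatty acid genes passed as lower and 1 as higher. Mean CPM of FADS1, for example, was 425 in NC and 301 in siFSCN1. The share of SCD in the fatty acid sum was 33.8% ± 0.520 in NC and 20.6% ± 0.857 in siFSCN1, with no overlap between libraries.

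The sterol enzymes had a similar ratio of sums, spread over more genes. Their summed FPKM was 459.5 ± 4.92 in NC and 378.5 ± 19.7 in siFSCN1, a ratio of 0.824. The sum for the regulators was 57.7 ± 1.41 in NC and 61.9 ± 2.15 in siFSCN1, a ratio of 1.07. FPKM was scaled by the authors to library totals and CPM here by TMM, so FPKM ratios lie higher. Under library totals the median of all tested genes moved up by 0.19 on the log2 scale.

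The scale decided some of the smaller calls. By CPM, 23 of the 24 genes that fell had no overlap between groups, all but ACSL4, and 5 of the 6 that rose, all but INSIG2. Of all genes tested, 34.4% were lower and 36.8% higher without overlap. By FPKM, 15 of the 24 had no overlap, while CYP51A1, MSMO1, SREBF1, SREBF2, ACLY, ACACA, FADS2, ACSL1 and ACSL4 overlapped. With library totals in place of TMM the members split into 17 lower and 11 higher, and with upper quartile scaling into 19 and 10.

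The fold changes were also compared with those of genes at the same level. Across all tested genes the median log2 fold change was 0.40 under 1 FPKM, 0.05 from 1 to 5, -0.17 from 5 to 20, -0.29 from 20 to 100 and -0.41 at 100 and above. The members' medians in the same ranges were -0.01 (1 gene), -0.42 (7 genes), 0.03 (12 genes), -0.38 (16 genes) and -0.66 (2 genes). Against a smooth trend of fold change on abundance, 22 of 38 members lay below the trend, as did 8615 of the 17076 genes tested. With this trend removed in the fit, 14 members were lower and 11 higher, and SCD, EBP and ELOVL6 had log2 fold changes of -0.82, -0.81 and -1.02.

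**Figure D3:**
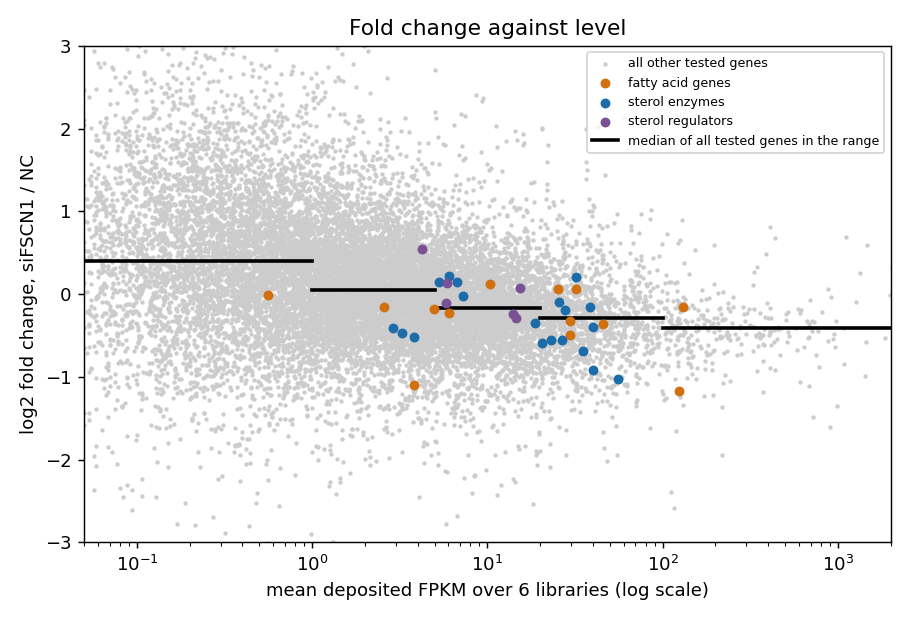
Log2 fold change (siFSCN1 over NC, vertical, cut at -3 and 3) against mean deposited FPKM over 6 libraries (log axis) for all tested genes in grey, with the 3 classes in colour and black bars for the median of all genes in each range. The bars step down from 0.40 under 1 FPKM to -0.41 at 100 FPKM and above, and SCD, EBP, ELOVL6 and HMGCS1 lie well below the bar of their range.

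For 17 genes neither the direction nor the call changed in any of the 17 alternative scalings, filters, tools, trends and left-out libraries. Of these, 14 were lower: 11 sterol enzymes (ACAT2, HMGCS1, MVK, IDI1, FDPS, FDFT1, NSDHL, HSD17B7, EBP, SC5D and DHCR7) and 3 fatty acid genes (ELOVL6, SCD and FADS1). The remaining 3, PMVK, LSS and STARD4, were higher. The share of all tested genes that held in the same way was not computed. In the reported fit alone, 68.3% of all tested genes passed. SREBF1, SREBF2, FASN, ACACA, FADS2, GGPS1, INSIG2 and ACSL3 kept their direction but lost the call in some alternatives. With the abundance trend removed the edgeR adjusted p was 0.225 for SREBF1, 0.734 for SREBF2, 0.523 for FASN and 0.474 for FADS2. Direction turned in at least 1 alternative for 9 genes, namely MVD, SQLE, CYP51A1, MSMO1, SCAP, ACLY, ACACB, ACSL1 and ACSL4.

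**Figure D4:**
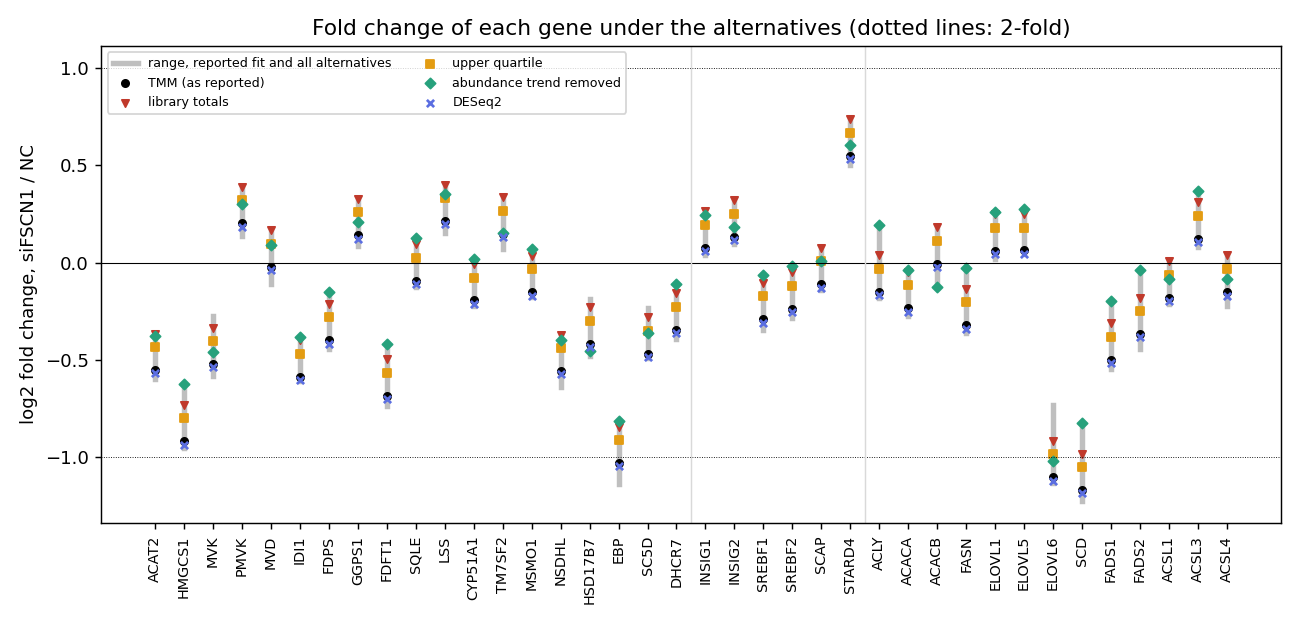
Log2 fold change of each gene under the reported fit (black) and selected alternatives (coloured), with grey bars for the range over all of them; dotted lines mark 2-fold. SCD, ELOVL6 and EBP stay at or below -0.73 throughout, whereas the bars of ACLY, MSMO1 and SQLE cross 0.

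Neighbouring pathways were described from 7 lists of genes outside the set, of which 83 of 85 genes were tested, 33 lower and 33 higher. Each direction made up 39.8%, near the 33.2% lower and 35.1% higher of all tested genes. In the list of SREBP processing, LXR and sterol handling, 5 of 16 fell (31.25%) and 7 rose (43.75%), with a median of 0.11. ERLIN2, a membrane protein of the endoplasmic reticulum that restrains SREBP activation, rose by 1.43 ± 0.060 (SE) on the log2 scale, from 1.83 ± 0.15 to 5.51 ± 0.19 FPKM, with an edgeR adjusted p of 4.58e-13. ERLIN1, in the same list, did not pass, at 0.02 ± 0.056 (SE) with an edgeR adjusted p of 0.745. Its mean FPKM was 10.9 in NC and 12.4 in siFSCN1, above that of ERLIN2. OSBP, which exchanges cholesterol at membrane contacts, fell by 0.91 ± 0.061 (SE), with an edgeR adjusted p of 2.72e-10.

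Of 11 genes that use isoprenoids, 9 fell, 0 rose and 2 did not pass, with a median of -0.24, where 33.2% of all genes tested were lower. RABGGTA, the alpha subunit of Rab geranylgeranyl transferase, fell by 1.20 ± 0.11 (SE) on the log2 scale, from 5.11 ± 0.56 to 2.50 ± 0.49 FPKM, with an edgeR adjusted p of 2.11e-08. Those that did not pass were NUS1, a subunit of the dolichol synthase, at -0.07 with an adjusted p of 0.254, and PGGT1B, a subunit of a geranylgeranyl transferase, at -0.09 with an adjusted p of 0.368. By FPKM both were slightly above NC, with ratios of 1.07 and 1.06.

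The supply of acetyl-CoA and NADPH was mixed, with 4 of 8 lower and 2 higher. Of all tested genes 33.2% were lower and 35.1% higher. SLC25A1, the mitochondrial citrate carrier, fell by 0.48 ± 0.059 (SE) and ACAT1, the mitochondrial thiolase, rose by 0.63 ± 0.044 (SE) on the log2 scale, with edgeR adjusted p of 9.86e-07 and 5.03e-10. Of the other genes of elongation, desaturation and activation, 5 of 14 fell (35.7%) and 6 rose (42.9%), near the shares of all tested genes. ELOVL7, an elongase of long saturated chains, fell by 1.28 ± 0.071 (SE), from 5.07 ± 0.15 to 2.35 ± 0.26 FPKM, with an edgeR adjusted p of 1.96e-11. ACSF2, an acyl-CoA synthetase of mitochondria, rose by 1.05 ± 0.11 (SE), with an edgeR adjusted p of 1.57e-07. ELOVL3, counted among those that fell, had only 39, 22 and 34 counts in NC and 11, 9 and 12 in siFSCN1, and its log2 fold change ranged from -2.15 to -0.41 over the 15 alternatives that kept it.

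**Figure D5:**
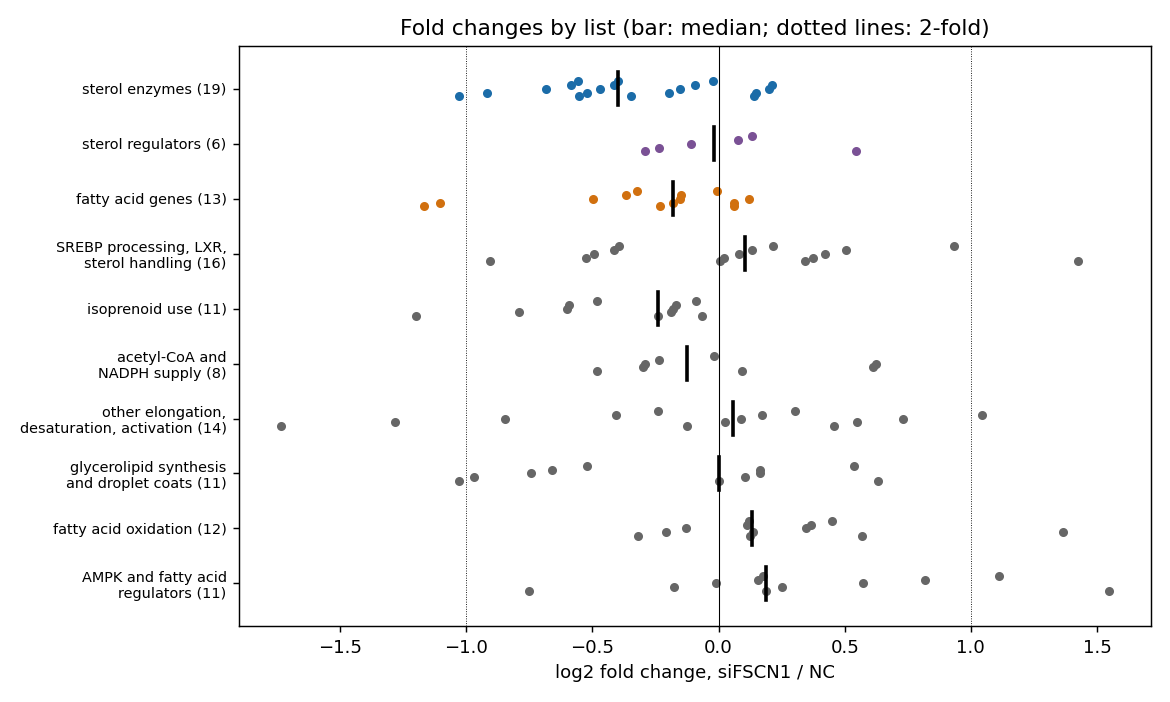
Log2 fold changes (siFSCN1 over NC) of the 3 classes of the set (coloured) and of the tested genes of 7 neighbouring lists (grey), one point per gene with the number of genes beside each name; thick bars are medians and dotted lines mark 2-fold. The sterol enzymes (median -0.40) and isoprenoid use (median -0.24) lie furthest left, and the AMPK and fatty acid regulators (median 0.19) furthest right.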

How the data were processed

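Whole-number read counts per gene (30230 genes) and FPKM values (29899 genes) were deposited for 3 NC and 3 siFSCN1 libraries of A549 cells, grouped by sample title. Per the study's methods, the authors trimmed reads with the FASTX Toolkit, aligned them to GRCh38 with HISAT2 and counted uniquely mapped reads. The submitters' processing notes instead name TopHat2 beside bcl2fastq. The library kit also differs between labels and methods, although both are strand-specific. The counting program, its strand setting and its annotation are not given in the sources used here, so overlapping genes may share reads: 27 of the 38 loci overlap another GENCODE v44 gene, 23 of them one on the opposite strand. The authors scaled the deposited FPKM to gene length and library total.

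Counts were filtered with filterByExpr (17076 genes kept), scaled by TMM and tested by group alone in edgeR 4.0.16 (R 4.3.3, quasi-likelihood F-test), with p-values adjusted after Benjamini and Hochberg. The authors used DESeq2, which was run here as an alternative (version 1.42.0). A gene passed at an adjusted p under 0.05, and the 2-fold call also needed a fold change of at least 2. SE was the fitted log2 fold change divided by the square root of F. The script was tested on simulated data. Totals of 27967301 to 36560919 counts and a biological coefficient of variation of 5.94% set the precision. Replicates were distinct libraries.

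Members and lists were chosen with earlier results of these data known. Values per library are given for members called at 2-fold and for SREBF1, SREBF2, FASN and SCD. They are also given for the 3 largest rises and falls in each class among members that passed. Of other genes, the 2-fold calls and the largest rise and fall of each list are given. ERLIN1, NUS1 and PGGT1B were added beside them. Promoters came from RefSeq (GRCh38.p14). Alternatives were RLE, upper quartile and library total scaling, DESeq2, 3 other filters, limma 3.58.1 on log2(FPKM + 0.1) and log2(FPKM + 1), the replicate number as a block, each library left out, the abundance trend removed by loess (span 0.3), and glmTreat.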

Additional observations from a re-analysis of the deposited data

How the results depend on the processing

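The median of all tested genes moved up by 0.12 (upper quartile), 0.19 (library totals) and 0.14 (limma on log2(FPKM + 0.1)) on the log2 scale, so calls nearest 0 depended on the scaling, and 80.0% of the members that passed were lower with TMM, 65.5% with upper quartile scaling, 60.7% with library totals, 61.5% with either limma fit and 56.0% with the trend removed. The number lower, 24, became 20 with the filter on mean FPKM, 19 with upper quartile scaling and 17 with library totals. It became 16 with either limma fit and 14 with the trend removed. In the other fits by this rule it lay between 23 and 26. The number higher, 6, became 10 with upper quartile scaling, 11 with library totals, 10 with the filter on mean FPKM, 10 with either limma fit and 11 with the trend removed, and ranged from 3 to 7 with 1 library left out (3 without NC replicate 1 or siFSCN1 replicate 3). Fatty acid genes lower, 9, became 5 with library totals, 5 with either limma fit and 3 with the trend removed. The 2-fold calls, 3, became 1 with upper quartile scaling, 0 with library totals, 1 and 0 with limma on log2(FPKM + 0.1) and log2(FPKM + 1), 1 with the trend removed and 1 by glmTreat. SCD held 2-fold in 14 of 17 alternatives, ELOVL6 in 13 and EBP in 9.

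The sterol enzyme median of -0.40 became -0.28 with upper quartile scaling, -0.21 with library totals, -0.31 with the filter on mean FPKM, -0.23 and -0.19 with the limma fits and -0.15 with the trend removed. The fatty acid median of -0.18 became -0.063, 0.0065, -0.12, -0.015, -0.013 and -0.040 in the same order, -0.15 with the stricter filter, and ranged from -0.22 to -0.17 with 1 library left out. It changed sign with library totals. The gap between these medians, -0.22, became -0.11 with the trend removed and ranged from -0.28 to -0.14 with 1 library left out (-0.14 without siFSCN1 replicate 2). Apart from the shifts of the median of all genes given above, the cause of these changes was not tested.

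For 9 members a negative log2 fold change turned positive in some alternatives. With upper quartile scaling the positive values were MVD 0.095, SQLE 0.024, SCAP 0.0069 and ACACB 0.11. With library totals the positive values were MVD 0.16, SQLE 0.094, MSMO1 0.035, SCAP 0.076, ACLY 0.037, ACACB 0.18, ACSL1 0.0065 and ACSL4 0.036. With the stricter filter the positive values were MVD 0.0062 and ACACB 0.022. With the filter on mean FPKM the positive value was MVD 0.063. With the trend removed the positive values were MVD 0.088, SQLE 0.13, CYP51A1 0.018, MSMO1 0.070, SCAP 0.0072 and ACLY 0.19. With limma on log2(FPKM + 0.1) the positive values were MVD 0.14, SQLE 0.072, MSMO1 0.014, SCAP 0.054, ACLY 0.015, ACACB 0.14 and ACSL4 0.012. With limma on log2(FPKM + 1) the positive values were MVD 0.13, SQLE 0.070, MSMO1 0.014, SCAP 0.047, ACLY 0.015, ACACB 0.058 and ACSL4 0.0090. With 1 library left out, MVD ranged from -0.11 to 0.041 (positive without NC replicate 1, NC replicate 3 or siFSCN1 replicate 2) and ACACB from -0.091 to 0.032 (positive without NC replicate 3, siFSCN1 replicate 1 or siFSCN1 replicate 3). With the trend removed, the higher values of SQLE and ACLY passed (adjusted p of 0.0113 and 0.000207 from edgeR), as did that of MVD with library totals (0.0385).

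Deviations of libraries that share a replicate number correlated at -0.03, 0.04 and -0.08 over genes. Libraries of different numbers were not compared, so these values cannot show whether the numbers mark pairs. With the number as a block, 25 members were lower and 6 higher. ACACB, the gene of lowest FPKM, was not tested under the filter on mean FPKM (at least 1).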

Other observations

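Genes of fatty acid oxidation were mostly higher after FSCN1 silencing. Of 12 tested, 8 rose and 3 fell, with a median log2 fold change of 0.13. EHHADH, a peroxisomal enzyme of beta-oxidation, rose by 1.36 ± 0.14 (SE) on the log2 scale, from 0.613 ± 0.11 to 1.77 ± 0.22 FPKM (SD, n = 3), with an edgeR adjusted p of 7.27e-08. ACAA2, the mitochondrial thiolase, had the largest fall, 0.32 ± 0.050 (SE), with an edgeR adjusted p of 1.64e-05. Among AMPK subunits and regulators of fatty acid metabolism, 7 of 11 rose and 2 fell. MLXIPL, which encodes the glucose-responsive factor ChREBP, rose by 1.55 ± 0.14 (SE) and PRKAB2, an AMPK beta subunit, by 1.11 ± 0.097 (SE), with edgeR adjusted p of 2.53e-08 and 1.03e-08. PRKAG2, an AMPK gamma subunit, fell by 0.75 ± 0.052 (SE), with an edgeR adjusted p of 4.76e-10. The median FPKM in NC was 8.58 for the oxidation list and 2.81 for the AMPK list, against 17.5 for the sterol and fatty acid synthesis genes, and 35.1% of all tested genes rose by the same rule.

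Of 11 tested genes of glycerolipid synthesis and lipid droplet coats, 5 fell (45.5%) and 3 rose (27.3%), beside 33.2% and 35.1% of all tested genes. PLIN3, a droplet coat protein, fell by 1.03 ± 0.049 (SE) on the log2 scale, from 26.6 ± 1.2 to 14.6 ± 0.27 FPKM, with an edgeR adjusted p of 2.61e-12. LPIN2, a phosphatidate phosphatase, rose by 0.63 ± 0.061 (SE), with an edgeR adjusted p of 3.95e-08.

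PLIN1, the adipocyte droplet coat protein, was chosen after its values were seen. It had 7, 4 and 7 counts in NC and 91, 73 and 68 counts in siFSCN1, so its NC level was close to 0. Its level reached at most 0.63 FPKM. PLIN1 came from a list of 6 adipocyte and hepatocyte markers, of which 3 had a row. ALB had 8, 5 and 6 counts in NC and 23, 29 and 17 counts in siFSCN1. APOA1 had 4, 3 and 7 counts in NC and 4, 1 and 5 counts in siFSCN1. These values are given as a description, with no test.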
